A study of Mus musculus with 6 samples.

Results

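The AP-1 and EGR transcription factors were examined here as the 10 genes *Fos*, *Fosb*, *Fosl1*, *Fosl2*, *Jun*, *Junb*, *Jund*, *Egr1*, *Egr2* and *Egr3*, found by gene symbol among the 25140 genes of the deposited count table. Polyadenylated RNA was sequenced from primary C57BL/6 mouse fibroblasts at passage 1. There were 3 libraries of fibroblasts given vehicle and 3 of fibroblasts given 10 ng/ml TGFβ, the cytokine best known for driving fibroblasts to become myofibroblasts, which contract and lay down matrix. Cells of both groups had been moved to 1% FBS for 16 h by the labels before the 24 h of treatment, a lowered serum that the vehicle cells share. The methods of the study give a longer time in lowered serum than the labels. The labels call the cells cardiac fibroblasts from the adult heart, as do the methods of the study, while its results call them mouse embryonic fibroblasts. The comparison asks which of these genes differed in level at the end of treatment, and earlier times were not measured.

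AP-1 is a dimer of basic leucine zipper proteins. A FOS protein (from *Fos*, *Fosb*, *Fosl1* or *Fosl2*) pairs with a JUN protein (from *Jun*, *Junb* or *Jund*), and JUN proteins can also pair with each other. The EGR proteins bind GC-rich sites through zinc fingers. *Fos*, *Fosb*, *Jun*, *Junb* and the EGR genes are immediate early genes, transcribed within minutes of a stimulus such as serum without new protein synthesis, and their short-lived mRNAs mostly fall again within hours. *Jund* is the family member known for steady expression.

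The promoters of *Fos*, *Fosb* and *Junb*, which fell with TGFβ, are shown with that of *Egr2*, which did not pass the test. All of them are immediate early genes, but *Jun*, another such gene with a window, is not shown. The genes shown are those that held TGACG, a motif added after the sequences were seen. *Egr2* had several windows, and the window shown was taken from those that held the CArG box (CC, 6 bases of A or T, GG). Each line gives the 250 bases before a RefSeq transcript start in GRCm38.p6 on the strand of the gene, with matches to the motifs named after them in capitals on either strand. The *Fos* window is chr12:85473640-85473889 on the plus strand, that of *Fosb* is chr7:19310046-19310295 on the minus strand, that of *Junb* is chr8:84978749-84978998 on the minus strand, and that of *Egr2* is chr10:67537619-67537868 on the plus strand.
Fos: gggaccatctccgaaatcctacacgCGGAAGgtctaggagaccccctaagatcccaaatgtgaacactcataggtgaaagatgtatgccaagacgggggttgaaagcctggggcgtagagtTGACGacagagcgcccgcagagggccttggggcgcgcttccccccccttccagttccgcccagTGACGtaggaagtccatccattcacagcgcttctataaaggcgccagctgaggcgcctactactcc
Fosb: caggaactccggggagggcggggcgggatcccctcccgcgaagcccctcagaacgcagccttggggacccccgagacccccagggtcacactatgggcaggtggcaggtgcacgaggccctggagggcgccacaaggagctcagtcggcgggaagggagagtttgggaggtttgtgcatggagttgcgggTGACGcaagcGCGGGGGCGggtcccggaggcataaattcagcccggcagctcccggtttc
Junb: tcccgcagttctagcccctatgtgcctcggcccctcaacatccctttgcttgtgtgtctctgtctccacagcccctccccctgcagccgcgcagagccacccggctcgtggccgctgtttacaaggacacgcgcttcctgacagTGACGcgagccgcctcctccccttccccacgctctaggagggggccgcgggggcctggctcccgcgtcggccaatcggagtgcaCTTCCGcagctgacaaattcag
Egr2: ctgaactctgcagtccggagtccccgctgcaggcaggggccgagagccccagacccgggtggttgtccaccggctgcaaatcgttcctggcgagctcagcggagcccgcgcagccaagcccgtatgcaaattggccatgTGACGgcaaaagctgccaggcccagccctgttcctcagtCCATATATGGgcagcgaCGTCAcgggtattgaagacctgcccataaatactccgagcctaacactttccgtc
RefSeq windows of 250 bases before and 50 bases after a start were held for 7 of the 10 genes, in 11 windows. No window was held for *Fosl1*, *Egr1* or *Egr3*, and sequence farther than 250 bases before a start was not searched. The sites searched were TGANTCA (bound by AP-1), TGACGTCA (the cyclic AMP response element) and its part TGACG, GCGNGGGCG (bound by EGR proteins), GTCTAGAC and CAGACA (bound by SMAD proteins), CGGAAG (bound by ETS proteins) and the CArG box (bound by serum response factor). TGACG was added after the sequences were seen, so its share of all windows is no fair background for these promoters. *Fos* held TGACG at 66 and 129 bases before its start, *Junb* at 106 and *Fosb* at 60, against 20.8% of all 32851 windows with that motif. *Fosb* also held GCGNGGGCG at 50 bases before its start, as did *Fosl2* at 79, against 5.55% of all windows. The start used for *Fosl2* lies 671 bases downstream of its annotated start. CGGAAG was found in *Fos*, *Fosl2* and *Junb*, against 16.9% of all windows. The CArG box was found only in *Egr2*, in 4 of the 11 windows, against 1.63% of all windows. The *Egr2* windows that start at 67537619, 67537620 and 67537680 overlap and hold the same site, so the 4 are not separate matches. The box lay 72 bases before the start shown, and *Egr2* held TGACG at 55 and 111 bases before that start. The start shown lies 2394 bases downstream of the annotated start of *Egr2*. The *Egr2* window by the annotated start (chr10:67535249-67535548) held no motif searched. None of the 11 windows held TGANTCA (7.81% of all windows), TGACGTCA (1.79%), GTCTAGAC (0.213%) or CAGACA (6913 of the 32851 windows), and the windows of *Jun* and *Jund* held no motif searched. These matches are descriptions of letters in a short window, and the window of *Jund* lies wholly upstream of its annotated gene.

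Libraries held from 27851677 to 31072338 counts. Levels were read for 9 fibroblast genes, which included *Col1a1*, *Col1a2*, *Dcn* and *Pdgfra* and together made 38079 to 42850 CPM with vehicle and 41555 to 45016 CPM with TGFβ. Most of this came from *Col1a1* and *Col1a2*, with vehicle means of 19992 and 13656.5 CPM. The 9 genes were not chosen to tell adult cardiac from embryonic fibroblasts. CPM is a gene's count divided by its library's total in units of 1e6 after TMM correction. Of these 9, 7 were called lower with TGFβ and none higher. Markers of other cells were measurable in each library. The 8 endothelial genes summed to 459 to 714 CPM with vehicle and 418 to 582 CPM with TGFβ, the 6 leukocyte genes found in the table to 238 to 340 CPM and 207 to 308 CPM, and the 4 mesothelial genes to 23.0 to 62.2 CPM and 14.8 to 34.2 CPM. The 5 cardiomyocyte genes summed to 38.3 to 59.1 CPM and 27.1 to 40.1 CPM, nearly all from *Tnnt2*, while *Myh6* had at most 16 counts in a library. None of the genes of these 4 lists that entered the test was called between the groups. The 4 smooth muscle genes summed to 92.5 to 101 CPM with vehicle and 111 to 138 CPM with TGFβ, with 2 called higher, and the 4 pericyte genes to 30.4 to 46.6 CPM and 52.5 to 93.5 CPM, with 1 called higher. The part of other cell types in the results was not tested. In these bulk samples, fewer cells that express a gene and less of its mRNA per cell cannot be told apart. The count columns name the group and no replicate number, so libraries are given in the order of the columns.

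All 10 genes passed the filter on low counts. Differences were tested by quasi-likelihood in edgeR, and p was adjusted by Benjamini-Hochberg over the 14334 genes tested. By this test 6 of the 10 passed an adjusted p of 0.05, against 40.7% of all genes. All 6 were lower with TGFβ (*Fosb*, *Fos*, *Egr1*, *Junb*, *Jun* and *Fosl2*), a direction in which 20.1% of all genes were called, and none was higher, where the share of all genes was 20.5%. *Fosl1*, *Jund*, *Egr2* and *Egr3* did not pass. The median log2 fold change was -0.45 over the 10 genes, beside -0.0013 over all genes tested. In 8 of the 10 genes the CPM of the groups did not overlap, against 53.3% of all genes (27.2% higher and 26.1% lower with TGFβ). For each of these a two-sided exact permutation test gave p = 0.1, the smallest that 3 libraries against 3 allow. Groups that do not overlap always give this p, so it adds nothing to that count. The plot of levels by library shows each value on which these counts rest.

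**Figure D1:**
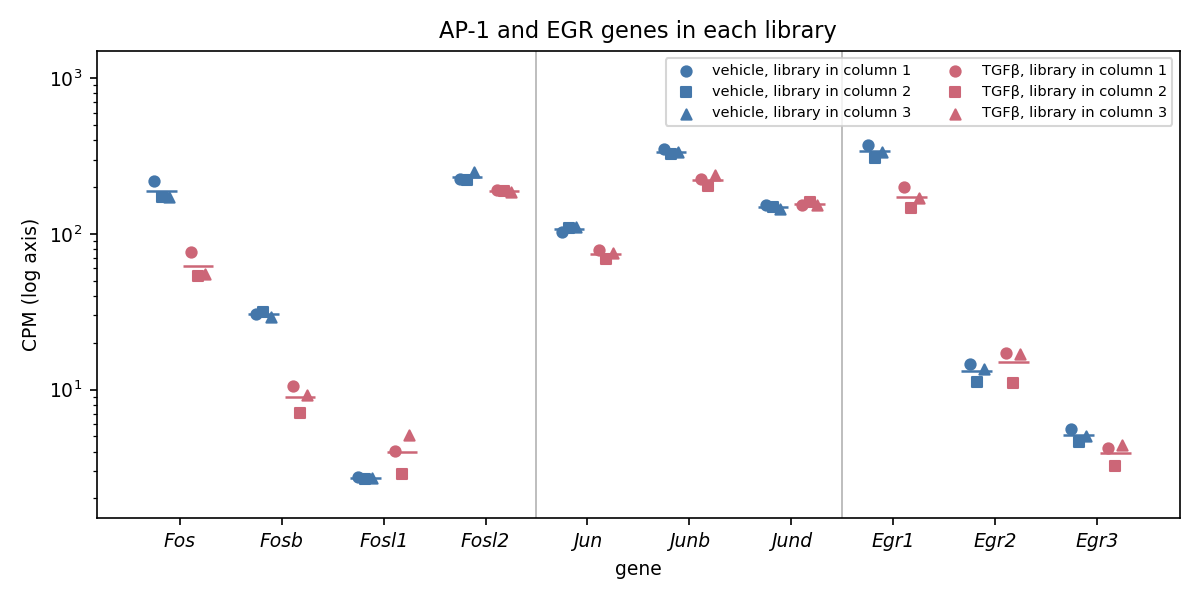
CPM of the 10 genes on a log axis, with 1 point for each library and a short line at the mean of each group (3 vehicle libraries in blue, 3 TGFβ libraries in red). The TGFβ points lie wholly below the vehicle points for *Fos*, *Fosb*, *Fosl2*, *Jun*, *Junb*, *Egr1* and *Egr3*, and wholly above them for *Fosl1*. The ranges of the groups overlap for *Jund* and *Egr2*.

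*Fos* (ENSMUSG00000021250) encodes the founding FOS protein, which activates transcription as a partner of JUN. It spans chr12:85473890-85477273 (plus strand) in GRCm38, also called mm10. Its level was 217, 174 and 172 CPM with vehicle and 76.5, 53.6 and 55.5 CPM with TGFβ. In each group the library of the first column was the highest, and the lowest vehicle value was still more than 2 times the highest TGFβ value. The mean fell by 67.0%, from 188 ± 25.8 CPM to 61.9 ± 12.7 CPM (SD, n = 3 each). On the log2 scale the fold change was -1.60 ± 0.15 (SE, edgeR adjusted p = 0.000166).

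*Fosb* (ENSMUSG00000003545), at chr7:19302696-19310051 (minus strand), encodes a close relative of FOS that is induced by the same stimuli. It stood at 30.5, 31.3 and 29.4 CPM with vehicle and at 10.6, 7.05 and 9.23 CPM with TGFβ. The vehicle libraries were nearly level, and the spread was wider with TGFβ. The mean fell by 70.5%, from 30.4 ± 0.98 CPM to 8.96 ± 1.79 CPM (SD, n = 3 each), the largest change of the 10 genes. The log2 fold change was -1.76 ± 0.13 (SE, edgeR adjusted p = 4.74e-05), and 1.14% of all genes tested had a lower one.

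*Fosl2* (ENSMUSG00000029135), at chr5:32135801-32157842 (plus strand), encodes FRA-2, a FOS protein without the C-terminal activation domain of FOS. It was measured at 225, 223 and 250.5 CPM with vehicle and at 193, 189.7 and 186 CPM with TGFβ. The groups did not overlap, though the fall was small beside that of *Fos*. The mean dropped by 18.7%, from 233 ± 15.3 CPM to 189 ± 3.54 CPM (SD, n = 3 each), with a log2 fold change of -0.30 ± 0.05 (SE, edgeR adjusted p = 0.0035).

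*Fosl1* (ENSMUSG00000024912), at chr19:5447547-5455946 (plus strand), encodes FRA-1, the other FOS protein without that activation domain. It had only 79 to 87 counts in the vehicle libraries and 80 to 145 in the TGFβ libraries. In CPM it was 2.73, 2.66 and 2.72 with vehicle and 4.02, 2.86 and 5.09 with TGFβ. Each TGFβ value lay above each vehicle value, by little in the library of the second column. The log2 fold change was 0.56 (95% interval 0.09 to 1.04) and the adjusted p from edgeR was 0.0615. Without the TGFβ library of the second column the log2 fold change was 0.75 and the adjusted p 0.012. With any other library left out, *Fosl1* did not pass (edgeR adjusted p from 0.117 to 0.183). *Fosl1* is overlapped on the opposite strand by *Ccdc85b*, and 56.9% of the 75-base windows of its longest transcript occur there. The library kit keeps strand, but whether strand was used in counting is not given in the sources used here, so the *Fosl1* level is uncertain. *Ccdc85b* itself had a mean of 13.5 ± 0.89 CPM in the vehicle libraries and 13.7 ± 0.99 CPM in the TGFβ libraries (SD, n = 3 each), and its edgeR adjusted p was 0.912.

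Among the JUN genes, *Junb* (ENSMUSG00000052837), at chr8:84974484-84978718 (minus strand), encodes a JUN protein that can restrain JUN in dimers. Its level was 349, 324 and 334 CPM with vehicle and 227, 203 and 240.0 CPM with TGFβ. The vehicle values were close together and clear of the TGFβ values. The mean fell by 33.5%, from 336 ± 12.7 CPM to 223 ± 18.6 CPM (SD, n = 3 each), so that the log2 fold change was -0.59 ± 0.07 (SE, edgeR adjusted p = 0.000386). The annotated span of *Prdx2* on the opposite strand overlaps that of *Junb*, but no 75-base window of the longest *Junb* transcript occurs in another gene.

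*Jun* (ENSMUSG00000052684), at chr4:95049034-95052222 (minus strand), encodes c-Jun, the strongest activator of the JUN proteins and a target of the JNK kinases. It stood at 103, 109 and 111 CPM with vehicle and at 78.6, 68.9 and 75.6 CPM with TGFβ. No TGFβ library reached the lowest vehicle library. The mean fell by 30.9%, from 108 ± 3.9 CPM to 74.4 ± 4.99 CPM (SD, n = 3 each), with a log2 fold change of -0.53 ± 0.06 (SE, edgeR adjusted p = 0.000305).

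*Jund* (ENSMUSG00000071076), at chr8:70698949-70700616 (plus strand), encodes the JUN protein linked to quiescent cells. It was measured at 154, 148 and 145 CPM with vehicle and at 152, 160.0 and 154 CPM with TGFβ. The groups overlapped (two-sided exact permutation test, p = 0.2). The log2 fold change was 0.06 with a 95% interval from -0.04 to 0.16, and the adjusted p from edgeR was 0.301. With a trend on GC content and length removed from each library, it was 0.14 (edgeR adjusted p = 0.0247). *Gm11175*, on the opposite strand, holds 45.9% of the 75-base windows of *Jund* and had 19 to 39 counts a library.

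**Figure D2:**
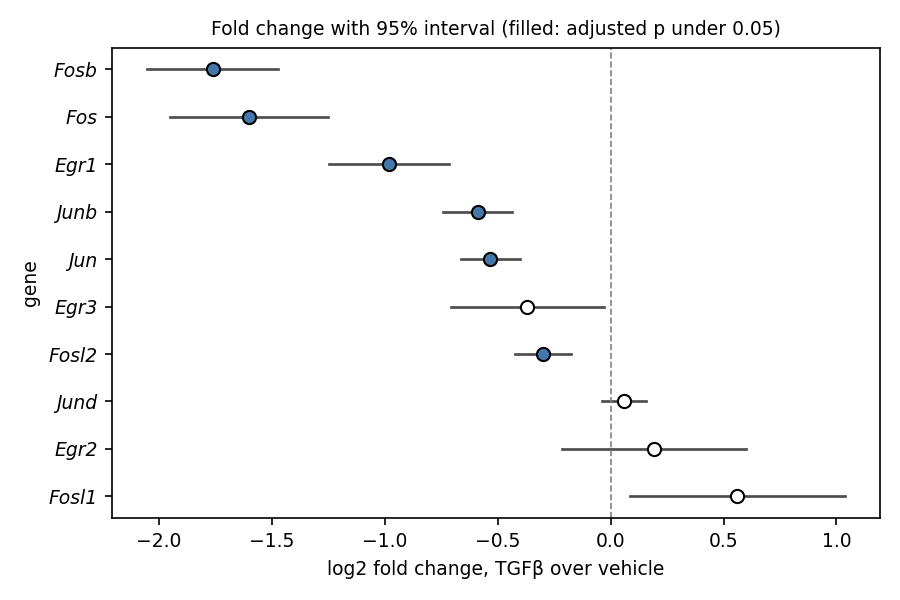
The 10 genes by log2 fold change (points, TGFβ over vehicle) with the 95% interval from edgeR's fit (lines). Filled points passed an adjusted p of 0.05, and all 6 of them lie left of 0, from -1.76 for *Fosb* to -0.30 for *Fosl2*.

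*Egr1* (ENSMUSG00000038418), at chr18:34859823-34864984 (plus strand), encodes the EGR protein best known for its response to serum, injury and growth factors. Its level was 374, 309 and 335 CPM with vehicle and 199, 147 and 169.9 CPM with TGFβ. The order of the columns was the same in both groups, with the first highest and the second lowest. The mean fell by 49.4%, from 339 ± 32.6 CPM to 172 ± 26.4 CPM (SD, n = 3 each), and the log2 fold change was -0.98 ± 0.11 (SE, edgeR adjusted p = 0.000468).

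*Egr2* (ENSMUSG00000037868), at chr10:67535475-67542188 (plus strand), encodes a factor known for myelination and T cell restraint. It stood at 14.5, 11.3 and 13.6 CPM with vehicle and at 17.2, 11.0 and 16.8 CPM with TGFβ. The groups overlapped, since the TGFβ library of the second column was the lowest of all 6 (two-sided exact permutation test, p = 0.5). The log2 fold change was 0.19 (95% interval -0.22 to 0.60, edgeR adjusted p = 0.425). Without that library it was 0.37, with an adjusted p of 0.0459. With any other library left out, *Egr2* did not pass (edgeR adjusted p from 0.34 to 0.79).

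*Egr3* (ENSMUSG00000033730), at chr14:70077203-70082614 (plus strand), encodes a factor that is itself a target of EGR1 in other cells. With 90 to 177 counts a library it was at 5.56, 4.62 and 5.06 CPM with vehicle and 4.20, 3.22 and 4.38 CPM with TGFβ. All TGFβ values were below all vehicle values, but the log2 fold change of -0.37 (95% interval -0.71 to -0.03) had an adjusted p of 0.0793 from edgeR. The remaining family member *Egr4* had at most 2 counts in a library and was not tested.

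Levels can be compared between genes only per length, so CPM were divided by the kilobases of annotated exon. With vehicle, *Junb* led at 146 CPM per kb, followed by *Jund* (89.5), *Fos* (79.7) and *Egr1* (75.7), then by *Jun* (33.7) and *Fosl2* (24.1). *Fosb* (4.87), *Egr2* (3.86), *Fosl1* (1.33) and *Egr3* (1.15) were the lowest in CPM per kb. The vehicle libraries of *Jund* and *Fos* overlapped, as did those of *Fos* and *Egr1*, and the other neighbours in this order did not. With TGFβ, *Junb* (97.0 CPM per kb) and *Jund* (93.2) overlapped at the top. *Egr1* (38.3) came next, then *Fos* (26.3) and *Jun* (23.3), which overlapped, and *Fosl2* (19.6). Below them lay *Egr2* (4.41 CPM per kb), then *Fosl1* (1.96) and *Fosb* (1.44), whose libraries overlapped, and *Egr3* (0.894). This order depends on the length taken, here the union of annotated exons (2301 bases for *Junb*, 9680 for *Fosl2*). The longest transcripts of these genes have 1809 and 6537 bases. By that length, with TGFβ, *Junb* lay above *Jund* with no overlap and *Fosl2* lay above *Jun*.

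The make-up of each family's mRNA was described as the share of each member in the summed CPM per kb. The summed FOS level was 110.0 ± 10.3 CPM per kb with vehicle and 49.3 ± 6.01 with TGFβ (SD, n = 3 each), 0.448 times the vehicle level. *Fos* gave 75.8%, 71.6% and 69.6% of it with vehicle and 58.0%, 50.7% and 50.5% with TGFβ. *Fosl2* gave 19.1%, 22.3% and 24.7% with vehicle and 35.5%, 43.6% and 41.0% with TGFβ, although its own level was lower with TGFβ. *Fosl1* held 1.22% of the FOS level with vehicle and 4.004% with TGFβ, and *Fosb* 4.45% and 2.90%. The order of *Fosl1* and *Fosb* with TGFβ turned with the longest transcript as length, at 3.42% and 3.75%. These are shares of mRNA, not of protein or of dimers.

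The summed JUN level went from 269 ± 6.64 CPM per kb with vehicle to 214 ± 7.34 with TGFβ (SD, n = 3 each). *Junb* made up 54.2% ± 0.77 of it with vehicle and 45.4% ± 2.26 with TGFβ, and *Jund* 33.3% ± 0.57 and 43.7% ± 2.54 (SD, n = 3 each). *Jun* held 12.5% and 10.9%. The EGR level was 80.7 ± 7.85 CPM per kb with vehicle and 43.6 ± 6.9 with TGFβ (SD, n = 3 each), and *Egr1* gave most of it in both groups, at 93.8% and 87.9%. The share of *Egr2* was 4.78% with vehicle and 10.0% with TGFβ. With length taken as the union of exons, the groups did not overlap in any of these shares, but with the longest transcript as length those of *Jun* did (10.9% and 9.72%). By the longest transcript, *Junb* made up 60.1% of the JUN level with vehicle and 51.4% with TGFβ, and *Jund* 29.0% and 38.9%. How close *Junb* and *Jund* stood with TGFβ thus depends on the length taken. These sums and shares are descriptions and were not tested.

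**Figure D3:**
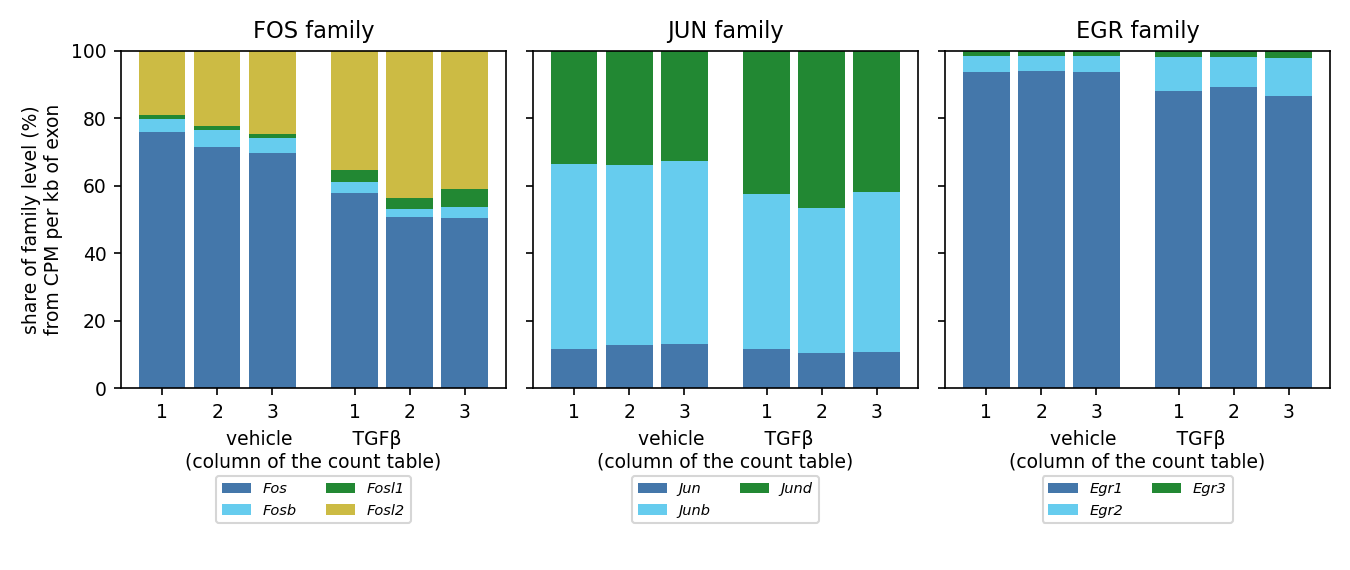
Share of each member in the summed level of its family (percent, from CPM per kb of exon), with 1 stacked bar for each of the 3 vehicle and 3 TGFβ libraries in the order of the columns. The *Fosl2* part is 19.1% to 24.7% of the FOS bars with vehicle and 35.5% to 43.6% with TGFβ, and the *Jund* part of the JUN bars is larger in each TGFβ library than in any vehicle library.

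In 5 of the 10 genes the libraries of a group varied more than edgeR's trend for genes of that level. Most genes lay below that trend: *Junb* had a ratio to it of 0.949, and 72.7% of all genes tested had a lower one. The biological coefficient of variation of *Fos* was 13.0%, where the trend was 6.65%, and 96.7% of all genes tested had a lower ratio to the trend. It was 14.99% against 8.56% for *Egr2* and 10.4% against 7.05% for *Egr1*. *Jund* lay below the trend, at 4.94% against 6.76%, and 34.9% of all genes tested had a still lower ratio. *Fosl2*, *Jun*, *Junb* and *Egr3* lay below the trend as well. The TGFβ library of the second column was the lowest of its group for 8 of the 10 genes, where it was the lowest for 30.5% of all genes, and its median log2 deviation from the group mean was -0.20 over the 10 genes. In the vehicle group the library of the second column was the lowest for 6 of the 10 genes, against 29.0% of all genes. The library of the first column was the highest of its group for 7 of the 10 genes with vehicle, against 34.4% of all genes, and for 6 with TGFβ, against 31.9%. The median log2 deviation was 0.052 over the 10 genes and 0.003 over all genes for the vehicle library of the first column, and it was 0.003 over all genes for the TGFβ library of the second column.

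**Figure D4:**
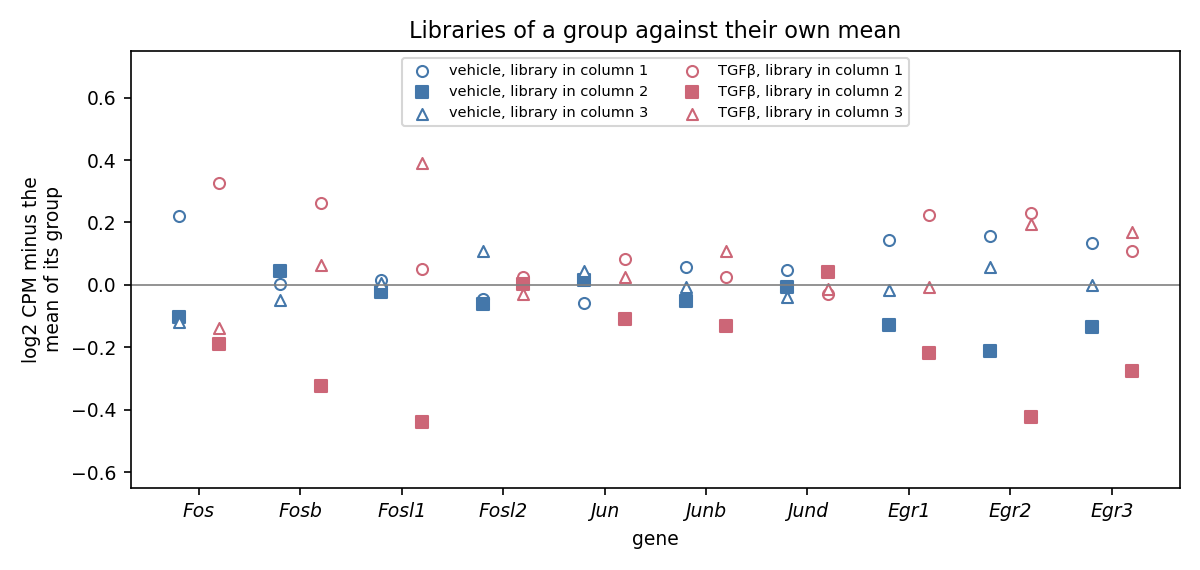
Log2 CPM of each library minus the mean of its own group for the 10 genes, with vehicle in blue, TGFβ in red and the library of the second column filled. The filled red squares are the lowest TGFβ points for 8 of the 10 genes, the exceptions being *Fosl2* and *Jund*.

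Other immediate early genes went both ways. Of 26 such genes, 11 were called lower and 6 higher with TGFβ, with a median log2 fold change of -0.15. Over all genes tested, 20.1% were called lower and 20.5% higher, and the counts of this and the other gene lists stand beside those shares. *Zfp36*, whose protein speeds the decay of AU-rich mRNAs, fell from 284, 228 and 235 CPM to 107, 84.98 and 80.0 CPM (log2 fold change -1.46, edgeR adjusted p = 0.000101). *Ier2* fell with a log2 fold change of -1.14 (edgeR adjusted p = 6.01e-05), and *Nr4a1*, an orphan nuclear receptor, with one of -1.21 (edgeR adjusted p = 0.0121). The genes that rose included *Ctgf*, a matricellular protein also named CCN2 and a known target of TGFβ (log2 fold change 1.49, edgeR adjusted p = 2.03e-05), the kinase *Plk2* (1.34, adjusted p = 0.000237) and the nuclear protein *Csrnp1* (0.72, adjusted p = 0.000794). The TGFβ library of the second column was the lowest of its group in 16 of these 26 genes and the vehicle library of the second column in 15.

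**Figure D5:**
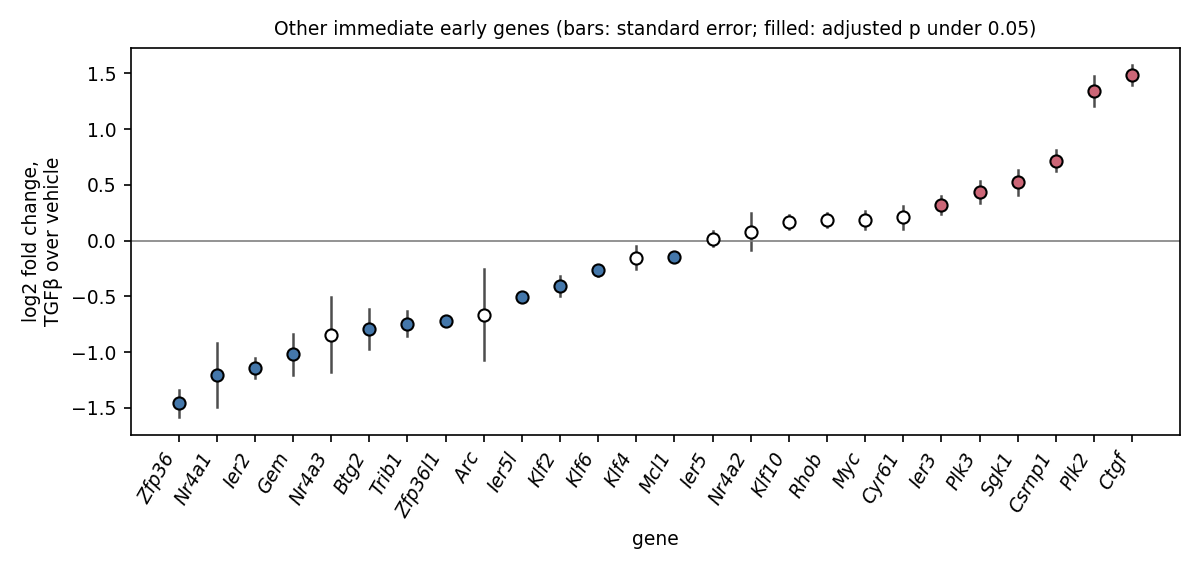
The 26 other immediate early genes by log2 fold change (points, TGFβ over vehicle) with standard error (lines), in rising order. Filled points passed an adjusted p of 0.05, 11 of them below 0 (lowest *Zfp36* at -1.46) and 6 above 0 (highest *Ctgf* at 1.49).

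Upstream of these genes, serum response factor and its ternary complex partners carry MAP kinase signals to the promoters of *Fos* and *Egr1*. Of 4 such factors, *Srf* rose from 43.6 to 55.2 CPM (log2 fold change 0.34, edgeR adjusted p = 0.00332) and *Elk1*, *Elk3* and *Elk4* did not pass the test. Of 21 MAP kinases and their activators, 6 were called higher and 5 lower, with a median log2 fold change of -0.003. *Map2k1*, which encodes the ERK activator MEK1, rose by 0.54 on the log2 scale (edgeR adjusted p = 0.000105), and *Braf* by 0.34 (adjusted p = 0.00612). *Map3k5*, which encodes the stress kinase ASK1 upstream of JNK and p38, fell from 7.47 to 2.34 CPM (log2 fold change -1.67, edgeR adjusted p = 2.68e-05), and *Map3k1* from 12.3 to 6.81 CPM (-0.85, adjusted p = 0.000199). Of 11 dual-specificity phosphatases tested, 3 were called higher and 3 lower, with a median of 0.001. *Dusp1*, itself an immediate early gene, fell from 229, 184 and 181 CPM to 137, 96.0 and 88.8 CPM (log2 fold change -0.89, edgeR adjusted p = 0.00409), *Dusp6*, which turns off ERK, also fell (log2 fold change -0.74, adjusted p = 0.0102), and *Dusp14* rose by 1.29 (adjusted p = 0.000632).

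Other basic leucine zipper proteins can join AP-1 dimers. Of 14 such partners tested, 3 were called higher and 4 lower, with a median log2 fold change of -0.12. *Mafg* rose by 0.30 (edgeR adjusted p = 0.00527) and *Atf4*, the factor of the integrated stress response, by 0.23 (adjusted p = 0.00558), while *Nfe2l2*, which encodes NRF2, fell (log2 fold change -0.24, adjusted p = 0.00178) as did *Atf7* (-0.22, adjusted p = 0.0091). *Atf3*, an immediate early partner of JUN, averaged 5.15 CPM in vehicle libraries and 5.39 CPM in TGFβ libraries and did not pass. The corepressors that bind EGR proteins both fell, *Nab1* with a log2 fold change of -0.29 (edgeR adjusted p = 0.000918) and *Nab2* with one of -0.20 (adjusted p = 0.0139).

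Genes with known AP-1 sites went both ways. Of 18, 7 were called higher and 6 lower, with a median log2 fold change of 0.21. *Mmp10*, a stromelysin, rose from 0.361 to 2.33 CPM (log2 fold change 2.68), and the metalloproteinase inhibitor *Timp1* from 308 to 806 CPM (1.39). *Mmp10* had only 8 to 13 counts in the vehicle libraries and 56 to 78 in the TGFβ libraries. The chemokine *Ccl2* fell from 348 to 104 CPM (log2 fold change -1.75), the stromelysin *Mmp3* from 869.97 to 338 CPM (-1.36) and *Ccnd1*, which encodes cyclin D1, from 72.1 to 31.5 CPM (-1.19). These 5 genes had an adjusted p of at most 0.0126 from edgeR. Of 11 tested genes with known EGR sites, 5 were called higher and 3 lower, with a median of -0.11. The matrix protein *Thbs1* rose by 1.80 (edgeR adjusted p = 4.17e-05) and *Gadd45b* by 0.79 (adjusted p = 0.000593), whereas the prostaglandin E synthase *Ptges* fell (log2 fold change -1.41, adjusted p = 0.000146) as did *Acsl1* (-0.36, adjusted p = 0.00101). Of 10 known TGFβ response genes, 6 were called higher and none lower, with a median log2 fold change of 0.96. Of 11 heat shock genes, 5 were called higher and 2 lower, with a median of 0.15. *Hspd1* rose by 0.45 (edgeR adjusted p = 0.000704), while *Hspa1a* fell (log2 fold change -0.34, adjusted p = 0.0301). *Hspa1a* kept its call under 7 of the 13 alternatives described below. Stress in handling was not tested.

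The genes whose log2 CPM ran most like that of the leading member of each family over the 6 libraries were named by Pearson's r, as a description with no test, with 10372 genes of 5 CPM or more on average compared. They were *Atp10d*, *Dock10* and *Hjurp* for *Fosb* (r of 0.9977, 0.996 and 0.9953), *Knstrn*, *Tbl2* and *Izumo4* for *Junb* (0.9985, 0.9967 and 0.9953), and *Il16*, *Isyna1* and *Cdc42ep3* for *Egr1* (0.9958, 0.9944 and 0.9939). With 3 libraries a group, such an r mostly reflects the gap between the groups, and 606, 445 and 302 genes had an r above 0.95 with *Fosb*, *Junb* and *Egr1*. *Il16*, which ranked first for *Egr1*, followed its order within both groups, at 31.3, 25.0 and 28.7 CPM with vehicle and 14.2, 11.2 and 12.6 CPM with TGFβ. Since *Il16* was chosen by r over these same libraries, that order is no separate result, and *Isyna1* shared it.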

How the data were processed

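RNA-seq was made by the authors from polyadenylated RNA with a stranded kit and 75-base single-end reads. The deposited table holds counts per gene, whole numbers that the authors had not normalized, for 3 vehicle and 3 TGFβ libraries. The submitters' processing notes name the mm10 build and DESeq2. The aligner, the counter and the strand setting are not given in the sources used here. The table also holds the authors' own comparison of the groups, which was not used.

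Libraries were grouped by the column names. Genes were filtered with filterByExpr, scaled by TMM and tested with edgeR's quasi-likelihood test (edgeR 4.0.16, limma 3.58.1, R 4.3.3), with Benjamini-Hochberg adjustment over all 14334 genes tested and calls at 0.05. The script was tested on simulated data with 200 genes changed and the same spread for all genes, which differs from these data. Totals were 27851677 to 31072338 counts per library. CPM were taken with TMM factors, and lengths are the union of annotated exons in GENCODE M21. The members and lists were chosen with earlier results of these data known. From each list up to 3 called genes in each direction with the largest change, at a mean of at least 1 CPM, were taken for naming, and genes that lost the call under an alternative are named only with the alternatives. Some genes the rule takes are not reported here. *Atf3*, *Il16* and the genes that overlap members were added. Alternatives were DESeq2 1.42.0, limma-voom, other scalings, filters, thresholds and leaving out each library. TGACG was searched after the promoter sequences were seen. P-values measure the spread between these libraries, which the study calls biological replicates.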

Additional observations from a re-analysis of the deposited data

How the results depend on the processing

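No paired analysis was possible because the columns of the count table carry no replicate number, and the order of columns is not given as a replicate number, so the planned replicate block was not run and whether libraries of the same column belong together was not tested. *Fos*, *Fosb*, *Fosl2*, *Jun*, *Junb*, *Egr1* and *Egr3* kept their direction and side of the threshold under the 13 alternatives of scaling, test, filter, GC and length trend or left-out library, at the same threshold. The number of genes called was 3595 (1855 higher, 1740 lower) at an adjusted p of 0.01, 971 (346 higher, 625 lower) with a log2 fold change beyond 1 as well, and 4489 to 5481 with 1 library left out. Of the 10 genes, 2 were called at 0.05 with a log2 fold change beyond 1 (*Fosb* and *Fos*, so that *Fosl2*, *Jun*, *Junb* and *Egr1* lost the call). With 1 library left out, 6 to 8 were called at 0.05. The log2 fold change of *Fosl1* was 0.57 without the low count filter (adjusted p = 0.0461 from edgeR) and 0.34 to 0.75 with 1 library left out. That of *Egr2* was 0.0802 to 0.37 with 1 library left out, and that of *Jund* was 0.14 with the trend on GC content and length removed, an alternative chosen after seeing the data. The cause was not tested. Of 45 list genes taken by the naming rule, 35 kept their call under those 13 alternatives and 10 did not (among them *Jdp2*, *Map2k6*, *Dusp10*, *Dusp8*, *Dusp7*, *Tgfb1*, *Hpse*, *Hspa1a* and *Dnaja1*). Without the vehicle library of the second column, 7 MAP kinase genes, 3 phosphatases and 4 heat shock genes were called, and without the TGFβ library of the second column 4 heat shock genes. With the longest transcript as length, also chosen after seeing the data, *Fos* gave 66.2% of the FOS level with vehicle and 46.4% with TGFβ, and *Fosl2* 26.7% and 46.4%. Low counts limit *Fosl1*, *Egr3* and *Mmp10*.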
